A study of Arabidopsis thaliana with 15 samples.

Results

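The genes described here are 8 loci of Arabidopsis thaliana that encode growth-regulating basic helix-loop-helix (bHLH) proteins and their partners: the PHYTOCHROME INTERACTING FACTOR genes PIF1 (AT2G20180), PIF3 (AT1G09530), PIF4 (AT2G43010), PIF5 (AT3G59060) and PIF7 (AT5G61270), HBI1 (AT2G18300), HFR1 (AT1G02340) and PRE1 (AT5G39860). They were taken by locus from 28775 genes counted, and all 8 passed the filter on low counts. RNA came from inflorescence meristem tissue of Ler plants kept at 21 °C for 6 weeks, and its 15 libraries fall into 6 groups. The 3 groups without spray were wild type (n = 2), ap1-1, which has defective sepals and petals (n = 3), and the microRNA line (n = 2). The last is ap1-1 in which the AP1 promoter expresses a microRNA that targets both STM (SHOOT MERISTEMLESS) and BP (BREVIPEDICELLUS). Sprayed plants were 35S::STM-GR with 10 µM dexamethasone (DEX) and 0.02% Silwet (n = 3), 35S::STM-GR with mock spray of 0.02% Silwet alone (n = 3), and wild type with DEX and Silwet (n = 2), all collected 5 h after spraying. STM is a KNOX homeodomain protein that keeps meristem cells undifferentiated. In the fusion it is held outside the nucleus by the glucocorticoid receptor part until DEX is given, and the 35S promoter drives it broadly. The microRNA acts where the AP1 promoter is active, in a mutant that itself lacks AP1 function. The microRNA line and ap1-1 share the ap1-1 allele, and DEX-sprayed wild type was set against wild type that received no spray, so an effect of DEX and one of spraying cannot be told apart in that pair.

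PIF proteins are bHLH transcription factors that bind G-box DNA and promote elongation growth. Phytochromes bind them in light and send them to degradation, DELLA proteins keep them from DNA, and the evening complex of the circadian clock represses transcription of PIF4 and PIF5. HFR1 is an atypical bHLH protein that pairs with PIF4 and PIF5 and keeps them from DNA. HBI1 is a bHLH activator of cell elongation. It is inhibited by IBH1, and PRE1, a small helix-loop-helix protein without a DNA-binding basic region, binds IBH1 and so frees HBI1.

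The promoters of PIF5, HBI1 and PRE1, which held a motif known for this network, and of PIF4, which changed most in the microRNA line against ap1-1, are shown to place such sites beside the levels. Each is the 300 bases before the RefSeq gene start, 5′ to 3′ on the gene's strand, read from the TAIR10.1 reference of the Col-0 accession, while the plants studied were Ler. Capitals mark matches to 4 motifs searched on both strands: the G-box CACGTG and the variant CACATG, both bound by PIF proteins, TGACAG, a core bound by the maize KNOX protein KNOTTED1, and GATTCG, a form of the site bound by the evening-complex protein LUX.
PIF4 (chr2:17885801-17886100, plus strand): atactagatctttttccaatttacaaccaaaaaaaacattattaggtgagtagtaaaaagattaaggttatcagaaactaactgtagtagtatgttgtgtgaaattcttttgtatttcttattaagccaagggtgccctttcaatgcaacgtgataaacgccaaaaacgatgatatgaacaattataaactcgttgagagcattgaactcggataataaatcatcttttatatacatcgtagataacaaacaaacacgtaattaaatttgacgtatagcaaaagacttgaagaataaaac
PIF5 (chr3:21830838-21831137, minus strand): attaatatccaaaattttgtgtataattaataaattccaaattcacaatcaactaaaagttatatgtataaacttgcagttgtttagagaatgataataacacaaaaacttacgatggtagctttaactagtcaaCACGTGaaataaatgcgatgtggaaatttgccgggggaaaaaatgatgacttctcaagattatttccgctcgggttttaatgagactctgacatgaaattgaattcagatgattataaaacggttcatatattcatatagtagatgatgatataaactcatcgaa
HBI1 (chr2:7954786-7955085, minus strand): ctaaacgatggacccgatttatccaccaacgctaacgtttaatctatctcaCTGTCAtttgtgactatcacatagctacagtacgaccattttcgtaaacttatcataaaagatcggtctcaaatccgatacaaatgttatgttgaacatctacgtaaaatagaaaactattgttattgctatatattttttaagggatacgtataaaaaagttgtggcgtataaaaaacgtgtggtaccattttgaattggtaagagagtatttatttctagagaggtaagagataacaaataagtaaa
PRE1 (chr5:15957068-15957367, plus strand): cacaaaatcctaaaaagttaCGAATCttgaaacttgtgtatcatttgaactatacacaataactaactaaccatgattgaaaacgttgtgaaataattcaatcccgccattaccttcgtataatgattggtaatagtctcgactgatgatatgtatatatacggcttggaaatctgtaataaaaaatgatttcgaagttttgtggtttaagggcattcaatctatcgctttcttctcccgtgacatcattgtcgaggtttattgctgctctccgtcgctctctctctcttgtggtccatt
PIF5 had a G-box starting 165 bases before the gene start, HBI1 had TGACAG on the opposite strand starting at 249 bases, and PRE1 had GATTCG on the opposite strand starting at 280 bases. PIF4 held none of the 4 motifs in this window, nor did PIF1, PIF3, PIF7 or HFR1, and no match overlapped another. Of 27443 promoters of the same length, 7.09% held the G-box, 13.1% CACATG, 6.88% TGACAG and 9.34% GATTCG. A match describes letters in this window and is not a measured binding site.

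The libraries held 18717248 to 26539358 gene counts, and levels are given as CPM (gene counts divided by library size) scaled by the trimmed mean of M values (TMM). STM itself stood at 47.9 ± 3.35 CPM (SD, n = 3) in ap1-1 and 31.5 ± 0.528 (SD, n = 2) in the microRNA line, and at 814 ± 8.22 and 822 ± 47.6 (SD, n = 3 each) in 35S::STM-GR with mock and DEX. BP (KNAT1, AT4G08150), the other target of the microRNA, stood at 53.6 ± 11.7 CPM (SD, n = 3) in ap1-1, 40.6 ± 1.13 in the microRNA line and 35.6 ± 2.68 in wild type (SD, n = 2 each). The ap1-1 and microRNA libraries overlapped, and BP was not called lower between them (-0.41 ± 0.14 SE, edgeR adjusted p = 0.0701). On the first principal component (57% of variance) the scores of the microRNA line were -114 and -113, and those of the 13 remaining libraries ran from -31.7 to 54.9. Replicates of unsprayed wild type and ap1-1 differed from each other more (chi-square per gene 14.2 to 32.1) than those of the other groups (3.15 to 7.73). Of the 6 meristem markers checked, CLV3 had 0 counts in wild type, DEX-sprayed wild type and ap1-1, and 1 or 2 counts per group elsewhere. Of the 5 tested, STM and WUS (-0.95 ± 0.12, edgeR adjusted p = 6.79e-05) fell and none rose in edgeR in the microRNA line against ap1-1, where the 6 summed to 94.2 to 94.8 CPM against 118 to 150. STM and KNAT1 are targets of the microRNA, so their levels and this sum cannot stand for meristem content. LFY (0.14 ± 0.15, edgeR adjusted p = 0.593) and UFO (0.12 ± 0.33, edgeR adjusted p = 0.876) were not called. With DEX against mock UFO (1.40 ± 0.22, edgeR adjusted p = 5.95e-04), LFY (0.61 ± 0.13, edgeR adjusted p = 0.00707) and KNAT1 (0.67 ± 0.13, edgeR adjusted p = 0.00284) rose and none fell in edgeR, with sums of 883 to 983 CPM against 882 to 906. STM, which 35S::STM-GR itself expresses, made up most of these sums (means of 822 and 814 CPM), so they cannot stand for meristem content. The 6 photosynthetic genes summed to 11300 to 15800 CPM in ap1-1 and 12100 to 13700 in the microRNA line. RBCS1A was the largest part of these sums (means of 6610 and 7430 CPM). Of the 6, 3 fell and 2 rose in edgeR in the microRNA line against ap1-1, so the sums cannot stand for green tissue content. The summed level of 2 pollen markers was 720 to 886 CPM in ap1-1 and 218 to 222 in the microRNA line. The part of these differences in the results below was not tested, and in such bulk tissue fewer cells of a type and less RNA per cell cannot be told apart.

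**Figure D1:**
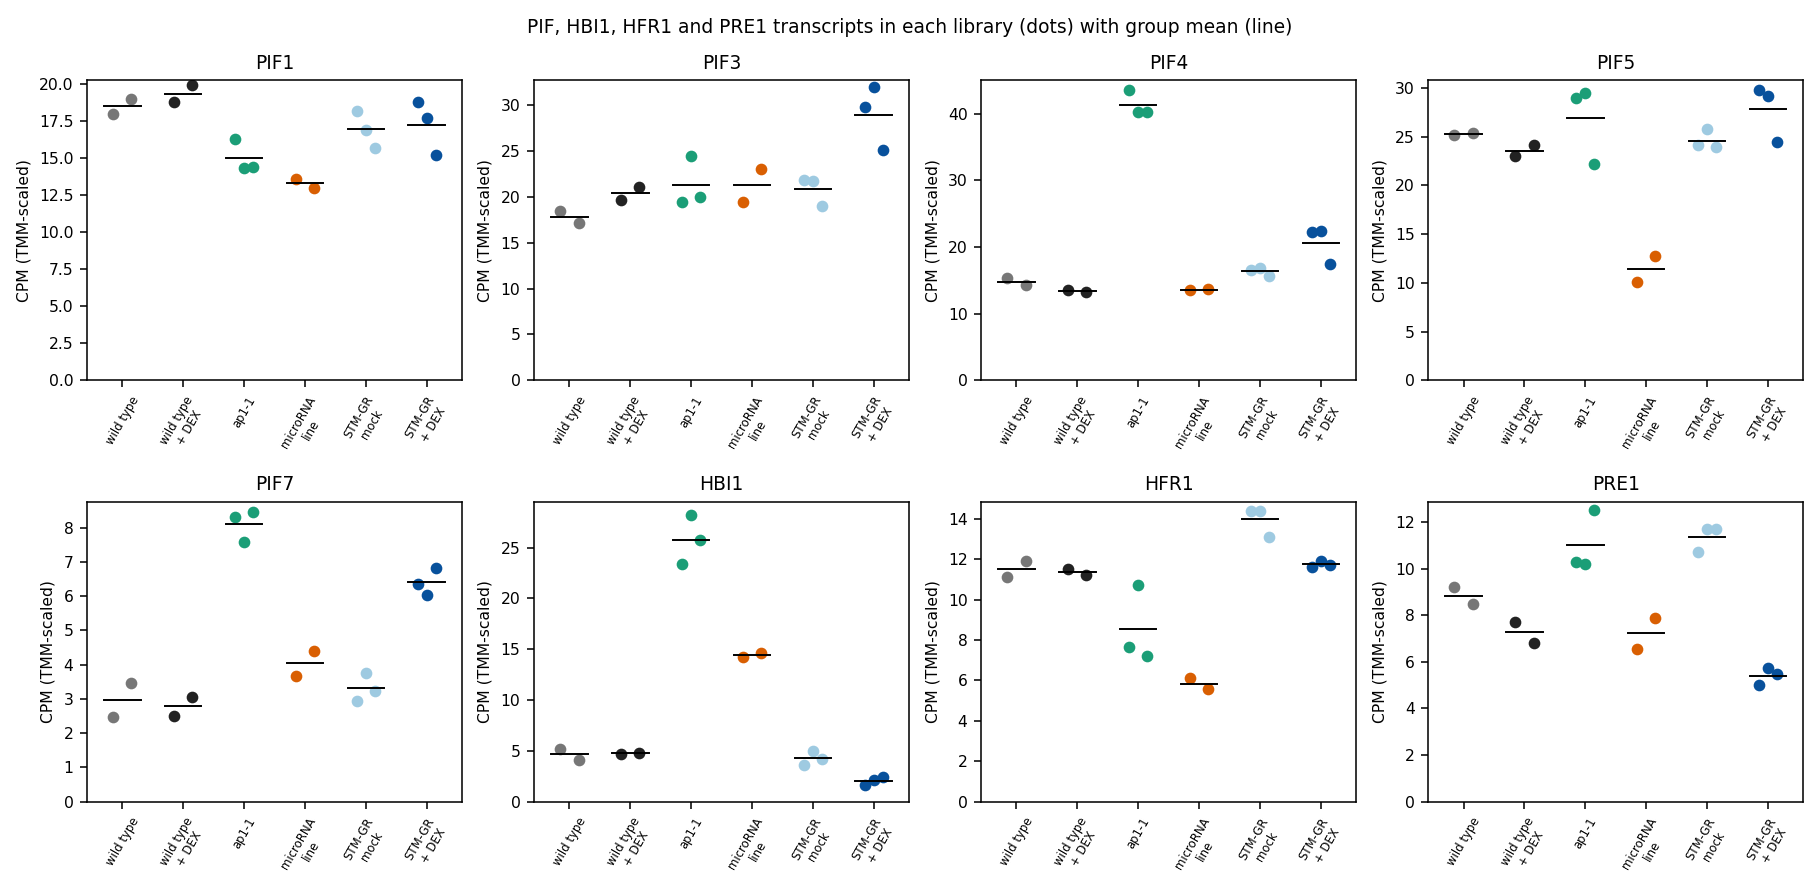
Level of each gene (y axis, CPM scaled by TMM library size, from 0) in each of the 15 libraries (dots), by group (x axis), with the group mean as a line. PIF4, PIF7 and HBI1 are highest in ap1-1, PIF5 is lowest in the microRNA line, and HBI1 and PRE1 are lowest in 35S::STM-GR with DEX.

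PIF4, the PIF best known for growth in warmth and shade, was high in ap1-1. Its level was 43.5, 40.3 and 40.2 CPM in the 3 ap1-1 libraries and 13.5 and 13.7 in the microRNA line. It was 15.3 and 14.3 CPM in wild type, 13.5 and 13.3 in DEX-sprayed wild type, 16.6, 16.9 and 15.7 in mock 35S::STM-GR and 22.2, 22.4 and 17.4 with DEX. The ap1-1 libraries stood above every other library, the DEX-treated 35S::STM-GR libraries came next, and the microRNA line overlapped only DEX-sprayed wild type, at the bottom. The ap1-1 mean was 3.09 times the lowest group mean. The log2 fold change was -1.61 ± 0.11 (SE) for the microRNA line against ap1-1, 1.48 ± 0.10 for ap1-1 against wild type and -0.13 ± 0.12 for the microRNA line against wild type. With DEX against mock in 35S::STM-GR it was 0.33 ± 0.09.

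PIF5, which acts beside PIF4 in shade and at the end of the night, was low in the microRNA line. Its level there was 10.1 and 12.8 CPM, against 29, 29.5 and 22.2 in ap1-1. Wild type had 25.2 and 25.4 CPM, DEX-sprayed wild type 23 and 24.1, mock 35S::STM-GR 24.1, 25.8 and 23.9, and DEX-treated 35S::STM-GR 29.8, 29.2 and 24.5. The other 5 groups overlapped one after the next in order of level, and the microRNA line stood apart from all of them. The log2 fold change was -1.23 ± 0.14 (SE) against ap1-1 and -1.14 ± 0.15 against wild type, while ap1-1 against wild type gave 0.09 ± 0.13. Both genes were thus lower in the microRNA line than in ap1-1, while in ap1-1 against wild type PIF4 was higher and PIF5 overlapped between the groups.

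PIF7, a PIF that is stable in light and drives auxin synthesis in shade, was the least abundant of the 5 PIF genes per length in each group. Its level was 8.31, 7.57 and 8.46 CPM in ap1-1 and 3.67 and 4.41 in the microRNA line. In 35S::STM-GR it was 2.95, 3.76 and 3.23 CPM with mock and 6.37, 6.03 and 6.82 with DEX. Wild type had 2.46 and 3.47 CPM and DEX-sprayed wild type 2.51 and 3.05. The ap1-1 libraries were the highest and the DEX-treated 35S::STM-GR libraries the next, with no overlap with each other or with the rest. The log2 fold change was 1.45 ± 0.17 (SE) for ap1-1 against wild type, -1.0 ± 0.17 for the microRNA line against ap1-1 and 0.95 ± 0.15 for DEX against mock. PIF7 overlaps AT5G61260 on the opposite strand, whose group means were 6.17 to 7.48 CPM, and its counts are less certain, since the sources used here do not say whether counting used strand.

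PIF3, the founding phytochrome interactor, was highest in 35S::STM-GR with DEX. Its level there was 29.8, 32 and 25.1 CPM, against 21.9, 21.7 and 19 with mock. Wild type had 18.5 and 17.2 CPM, DEX-sprayed wild type 19.7 and 21.1, ap1-1 19.5, 24.5 and 20, and the microRNA line 19.5 and 23.1. The DEX-treated libraries stood above every other library, and ap1-1 and the microRNA line overlapped, with a log2 fold change of 0.01 ± 0.13 (SE) between them. For DEX against mock it was 0.47 ± 0.11.

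PIF1, which restrains seed germination and greening, had the narrowest range of the 8 genes, with a highest group mean 1.46 times the lowest. Its level was 18 and 19 CPM in wild type, 18.8 and 19.9 in DEX-sprayed wild type, 16.3, 14.3 and 14.4 in ap1-1 and 13.6 and 13 in the microRNA line. In 35S::STM-GR it was 18.2, 16.9 and 15.7 CPM with mock and 18.8, 17.7 and 15.2 with DEX. The microRNA line lay below every other library, and ap1-1 below both wild-type groups. The log2 fold change was -0.47 ± 0.12 (SE) for the microRNA line against wild type, -0.29 ± 0.10 for ap1-1 against wild type and 0.03 ± 0.09 for DEX against mock. PIF1 overlaps AT2G20170 on the opposite strand, whose group means were 0.0301 to 0.232 CPM. Its counts are less certain for the same reason as those of PIF7.

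HBI1 had the widest range of the 8 genes, with a mean in ap1-1 12.5 times that in 35S::STM-GR with DEX. Its level was 23.4, 28.2 and 25.8 CPM in ap1-1 and 14.2 and 14.6 in the microRNA line. Wild type had 5.2 and 4.13 CPM, DEX-sprayed wild type 4.7 and 4.81, mock 35S::STM-GR 3.58, 4.98 and 4.22, and DEX-treated 35S::STM-GR 1.62, 2.16 and 2.43. Both groups with the ap1-1 allele stood above all groups without it, and the DEX-treated 35S::STM-GR libraries stood below every other library. Its log2 fold change was 2.46 ± 0.16 (SE) for ap1-1 against wild type and 1.62 ± 0.17 for the microRNA line against wild type. It was -0.84 ± 0.15 for the microRNA line against ap1-1 and -1.03 ± 0.17 for DEX against mock. HBI1 was thus lower both in the microRNA line and in 35S::STM-GR with DEX, each against its own control, from starting levels of 25.8 ± 2.36 CPM in ap1-1 and 4.26 ± 0.70 in mock 35S::STM-GR (SD, n = 3 each). Its raw count was between 40 and 626 in a library.

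PRE1, which frees HBI1 from IBH1, also was lowest in 35S::STM-GR with DEX, at 4.99, 5.73 and 5.48 CPM. Mock-treated libraries had 10.7, 11.7 and 11.7 CPM, the highest group mean of PRE1. Its level was 10.3, 10.2 and 12.5 CPM in ap1-1, 6.55 and 7.9 in the microRNA line, 9.22 and 8.47 in wild type and 7.71 and 6.82 in DEX-sprayed wild type. DEX-treated and mock 35S::STM-GR did not overlap, and the DEX-treated libraries lay below every other library. Its log2 fold change was -1.07 ± 0.12 (SE) for DEX against mock and -0.60 ± 0.13 for the microRNA line against ap1-1. In ap1-1 against wild type it was 0.31 ± 0.13, where HBI1 had 2.46 ± 0.16.

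HFR1, the inhibitor of PIF4 and PIF5, was lowest in the microRNA line at 6.12 and 5.57 CPM. It was 7.67, 10.7 and 7.2 CPM in ap1-1, 11.1 and 11.9 in wild type and 11.5 and 11.2 in DEX-sprayed wild type. In 35S::STM-GR it was 14.4, 14.4 and 13.1 CPM with mock and 11.6, 11.9 and 11.7 with DEX. The mock libraries were the highest of all, and both groups with the ap1-1 allele lay below the others. Its log2 fold change was -0.98 ± 0.16 (SE) for the microRNA line against wild type, -0.54 ± 0.15 against ap1-1, and -0.25 ± 0.12 for DEX against mock.

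**Figure D2:**
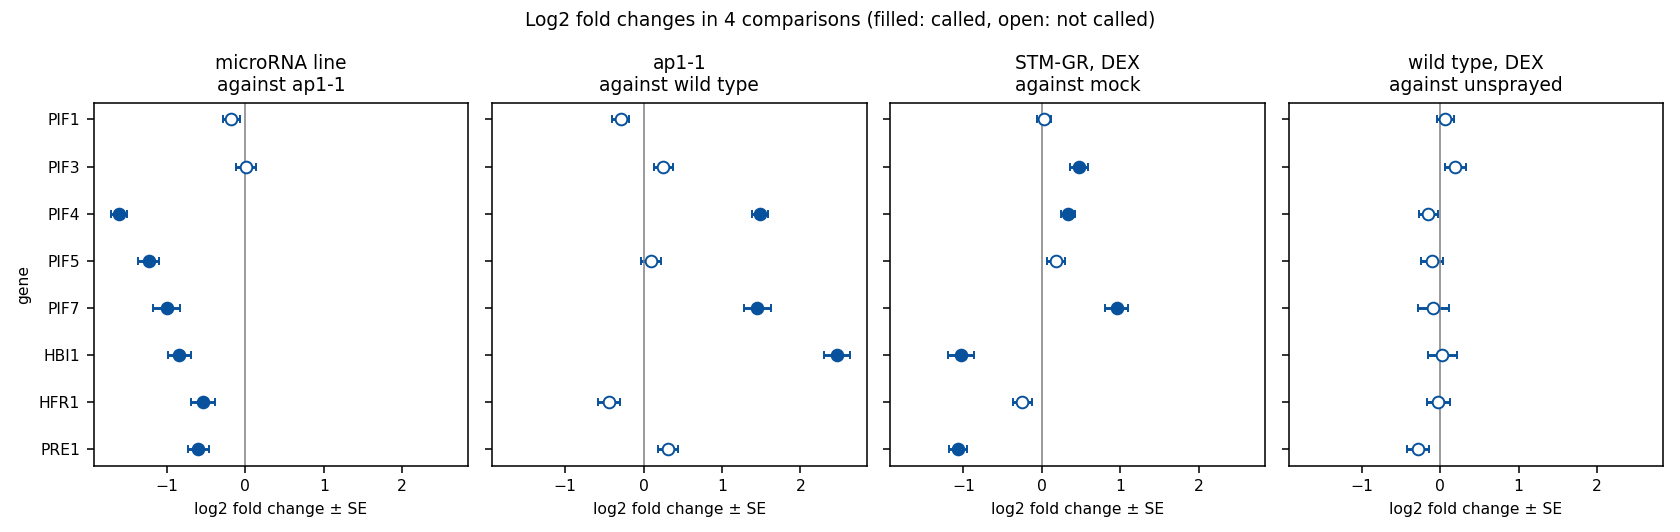
Log2 fold change with its SE (x axis) of each gene (y axis) in 4 comparisons of the edgeR fit. Filled points were called at an adjusted p under 0.05 over all genes tested and open points were not; 6 genes lie left of 0 and filled for the microRNA line against ap1-1, and no point is filled for DEX-sprayed against unsprayed wild type.

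Calls were made in 1 edgeR quasi-likelihood fit of all 15 libraries, with a Benjamini-Hochberg adjusted p under 0.05 over the 21716 genes tested. These 8 genes were chosen with earlier results of these data known, so their calls describe them and support nothing. In the microRNA line against ap1-1, 6 of the 8 were lower (PIF4, PIF5, PIF7, HBI1, HFR1 and PRE1) and none was higher, where 16.3% of all genes tested were called in either direction, 4.87% higher and 11.4% lower. Without the first or the second microRNA library, genes called over the whole table went from 1057 higher and 2475 lower to 455 and 1558 or to 318 and 1332. The median log2 fold change was -0.72 over the 8 and -0.001 over all genes. The calls of PIF4, PIF5, PIF7 and HBI1 held in all 12 alternatives. HFR1 lost its call without either microRNA library (-0.62 ± 0.20 and -0.48 ± 0.20) and with only the 2 groups fitted, and PRE1 without the first microRNA library (-0.48 ± 0.16) and with only the 2 groups fitted.

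With DEX against mock in 35S::STM-GR, PIF3, PIF4 and PIF7 were called higher and HBI1 and PRE1 lower, beside 12.7% of all genes called, 5.56% higher and 7.15% lower. That balance over all genes turns when libraries are scaled by their totals only, from 1207 higher and 1553 lower to 1462 and 1260, while no call of the 8 changed under that scaling. The median was 0.10 over the 8 and 0.01 over all genes. PIF7, HBI1 and PRE1 kept their calls in all 13 alternatives. PIF4 lost its call without any 1 of 5 of the 6 libraries compared (0.26 to 0.35), and PIF3 without the second DEX library (0.39 ± 0.12) or the third mock library (0.41 ± 0.12), so that 3 genes were called without either of those.

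In DEX-sprayed against unsprayed wild type, none of the 8 was called and none had an unadjusted p under 0.05 in edgeR, beside 0.617% of all genes called, 0.484% higher and 0.134% lower. DESeq2 and limma-voom also called 0. The log2 fold changes of the 8 in edgeR ran from -0.29 (PRE1) to 0.19 (PIF3). A p that misses the threshold does not show that the levels are alike.

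The DEX change in 35S::STM-GR minus the DEX change in wild type was called for 3 of the 8, beside 1.93% of all genes called, 0.944% higher and 0.985% lower. It was 1.04 ± 0.25 (SE) for PIF7, -1.06 ± 0.25 for HBI1 and -0.78 ± 0.18 for PRE1 on the log2 scale. Each of these calls was lost in 10 of 17 alternatives, and 0 to 2 of the 8 were called when any 1 library was left out. Without either of the first 2 DEX-treated 35S::STM-GR libraries, the third mock library, either DEX-sprayed wild-type library or the second wild-type library, 0 were called. Without the first or the second mock library, 1 was called.

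In ap1-1 against unsprayed wild type, PIF4, PIF7 and HBI1 were called higher and none of the 8 lower in edgeR, beside 10.6% of all genes called, 5.42% higher and 5.19% lower. HFR1, at -0.44 ± 0.14, was called lower by DESeq2, by limma-voom and without the second ap1-1 library. The 3 calls in edgeR held in all 12 alternatives. In the microRNA line against wild type, HBI1 was called higher and PIF1, PIF5 and HFR1 lower, beside 28.9% of all genes called, 12.1% higher and 16.8% lower. These groups differ in both the ap1-1 allele and the microRNA. The calls of HBI1, PIF5 and HFR1 held in all 11 alternatives, and that of PIF1 was lost without the second microRNA library (-0.45 ± 0.15). In this comparison PIF4 (-0.13 ± 0.12), PIF7 (0.45 ± 0.19), PIF3 (0.26 ± 0.14) and PRE1 (-0.29 ± 0.14) were not called. Comparisons with ap1-1 and those with wild type share libraries, so they are not independent.

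Between 35S::STM-GR and wild type, both with DEX, PIF3 (0.51 ± 0.12), PIF4 (0.63 ± 0.10) and PIF7 (1.20 ± 0.17) were called higher and HBI1 (-1.20 ± 0.18) lower, beside 10.8% of all genes called, 4.92% higher and 5.92% lower. This comparison shares the DEX-treated 35S::STM-GR libraries with that of DEX against mock. PIF4, PIF7 and HBI1 kept their calls in all 12 alternatives, and PIF3 lost its call without the first or the second DEX-treated 35S::STM-GR library or either wild-type library (0.42 to 0.55). PRE1, at -0.42 ± 0.13, was not called in this fit. It was called lower with median-of-ratios size factors (-0.43 ± 0.13), with the replicate block (-0.47 ± 0.14) and with only the groups compared (-0.42 ± 0.13).

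**Figure D3:**
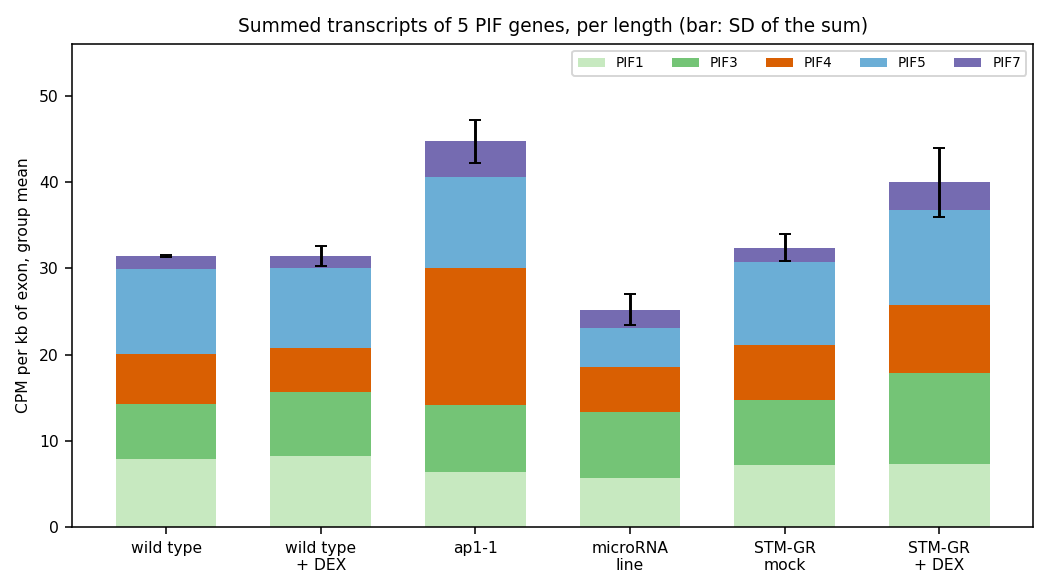
Group mean of PIF1, PIF3, PIF4, PIF5 and PIF7 (stacked bars, y axis in CPM per kilobase of exon, from 0) by group (x axis), with the SD of the summed level as the error bar. The sum is highest in ap1-1, at 44.7, and lowest in the microRNA line, at 25.2, and the PIF4 segment is widest in ap1-1.

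Levels of different genes can be compared only per length, so CPM were divided by exon length from RefSeq. This length merges all exons annotated for a gene, and which of its transcripts were present is not known here. Rankings and ratios between genes depend on it. The 5 PIF genes together stood at 31.4 ± 0.109 CPM per kilobase in wild type and 31.4 ± 1.16 in DEX-sprayed wild type (SD, n = 2 each). They reached 44.7 ± 2.47 in ap1-1 (SD, n = 3) and 25.2 ± 1.81 in the microRNA line (SD, n = 2), and 32.4 ± 1.56 with mock and 39.9 ± 4.00 with DEX in 35S::STM-GR (SD, n = 3 each). The microRNA libraries, at 23.9 and 26.5, lay below all others.

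The make-up of this pool also differed between groups. PIF5 was the largest share in wild type, at 31.4%, with PIF4 at 18.1% ± 0.96 (SD, n = 2). In ap1-1 PIF4 was the largest, at 35.7% ± 1.64 (SD, n = 3), and PIF5 had 23.4% ± 2.38. In the microRNA line PIF3 was the largest, at 30.6% ± 1.42 (SD, n = 2), with PIF4 at 20.8% ± 1.29 and PIF5 at 17.7% ± 1.77. The share of PIF4 was 19.5% ± 0.19 with mock and 19.8% ± 0.79 with DEX in 35S::STM-GR (SD, n = 3 each), where PIF7 had 5.24% ± 0.59 and 8.30% ± 1.38.

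PIF4 relative to its inhibitor HFR1, as the ratio of levels per length, was 2.93 ± 0.64 in ap1-1 (SD, n = 3) and 0.755 ± 0.072 in wild type (SD, n = 2). It was 1.36 ± 0.105 in the microRNA line (SD, n = 2), 0.689 ± 0.015 with mock and 1.03 ± 0.14 with DEX in 35S::STM-GR (SD, n = 3 each). The lowest ap1-1 library, at 2.2, lay above the highest library of any other group. HBI1 relative to PRE1 was 1.03 ± 0.157 in ap1-1 (SD, n = 3), 0.872 ± 0.095 in the microRNA line (SD, n = 2) and 0.228 ± 0.024 in wild type (SD, n = 2). It was 0.162 ± 0.020 with mock and 0.166 ± 0.026 with DEX in 35S::STM-GR (SD, n = 3 each), and both genes were lower with DEX.

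**Figure D4:**
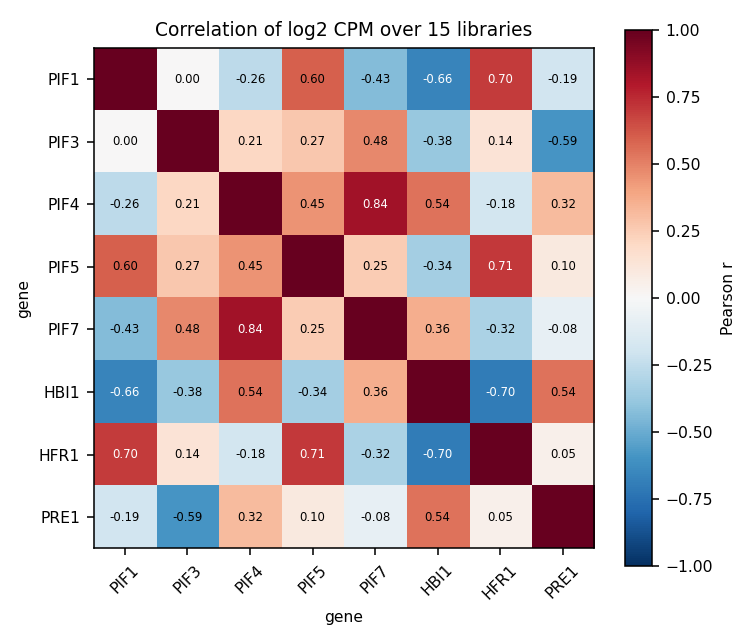
Pearson correlation of log2 CPM over the 15 libraries for each pair of the 8 genes (both axes list the genes; colour and number give r). Red squares are positive and blue ones negative, from 0.84 for PIF4 with PIF7 to -0.70 for HBI1 with HFR1.

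The 8 genes did not vary as 1 block. Over the 15 libraries, which share the 6 group means, the 28 pairs had correlations of log2 CPM from -0.70 to 0.84 with a median of 0.12, and 16 were positive. PIF4 and PIF7 were the most alike (0.84), then PIF5 and HFR1 (0.71) and PIF1 and HFR1 (0.70). HBI1 ran opposite to HFR1 (-0.70) and PIF1 (-0.66). These values describe the libraries, and carry no test.

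Among 8210 named genes with a mean log2 CPM of at least 1, the most alike to each over the 15 libraries were taken by correlation, as a description. For PIF4 it was TCP1, a CYC-type TCP gene (0.903). For HBI1 these were CYP86A2, a fatty acid hydroxylase (0.969), the organ boundary gene CUC2 (0.960) and HB33 (0.954). For PIF5 these were the dehydrin LTI30 (0.947), the clock gene PRR7 (0.942) and MYBR1 (0.927). For PIF7 these were CYP707A2, an abscisic acid hydroxylase (0.901), WOX12 (0.897) and LOG5, an enzyme of cytokinin activation (0.892). PRE1 was nearest to CKX5, a cytokinin oxidase (0.888), PIF3 to NIK2 (0.943), PIF1 to AMT1;4 (0.915) and HFR1 to CAT6, an amino acid transporter (0.954).

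**Figure D5:**
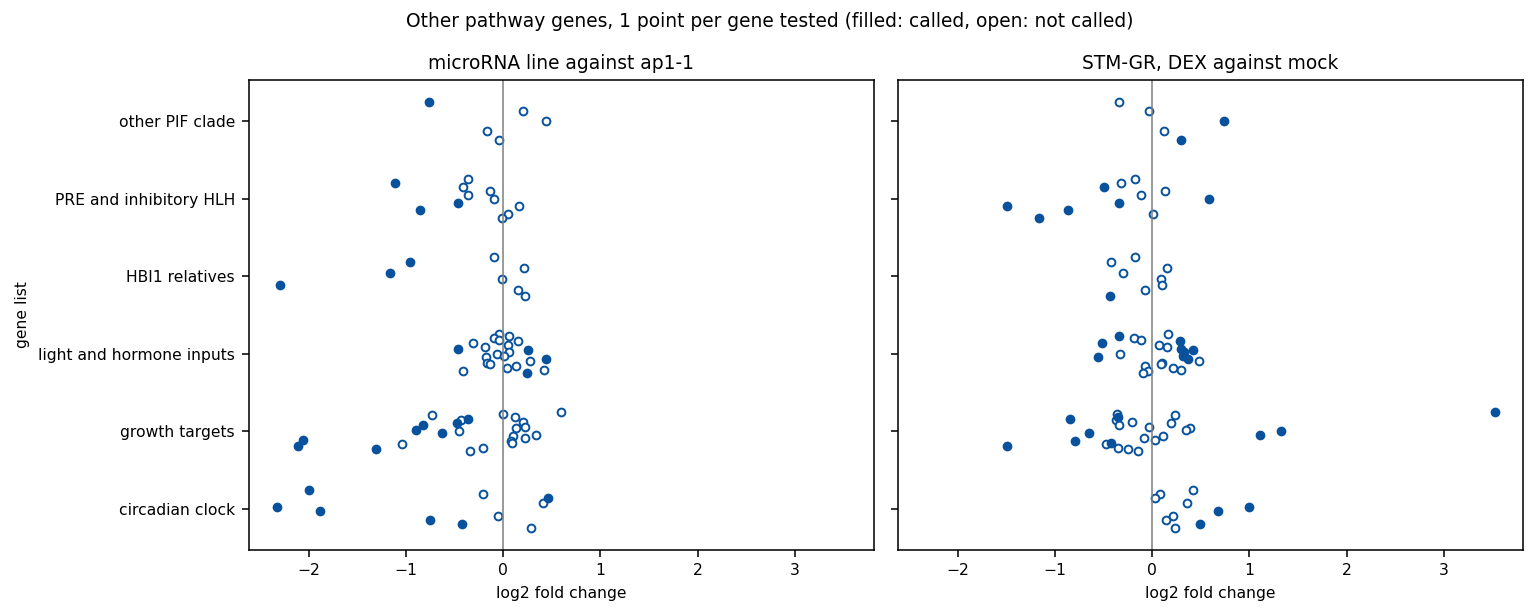
Log2 fold change (x axis) of each tested gene of 6 pathway lists (y axis, 1 point per gene), for the microRNA line against ap1-1 on the left and DEX against mock in 35S::STM-GR on the right. Filled points were called and open points were not; CCA1, LHY and PRR9 lie near -2 on the left, and YUC9 is the point above 3 on the right.

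The rest of the pathway was read from lists chosen by function, with calls as above by edgeR. Each count is to be set beside the share of all genes called in the same comparison, 16.3% for the microRNA line against ap1-1 and 12.7% for DEX against mock, and the lists carry no test of their own. The median log2 fold change in these comparisons was -0.001 and 0.01 over all genes, -0.36 and -0.32 over the helix-loop-helix genes, -0.05 and -0.12 over the HBI1 relatives and 0.01 and 0.10 over the inputs. It was -0.34 and -0.20 over the growth genes, -0.31 and 0.30 over the clock genes, -0.28 and 0.05 over the green-tissue genes and -0.04 and 0.12 over the PIF relatives. Among 11 tested genes for PRE and inhibitory helix-loop-helix proteins, 3 fell and none rose in the microRNA line against ap1-1, with 1 to 4 lower when 1 library was left out. PAR2, which binds PIF4 and keeps it from DNA, fell by 0.86 ± 0.13 (SE) on the log2 scale (edgeR adjusted p = 2.84e-04). With DEX in 35S::STM-GR, 5 fell and 1 rose, with 3 or 4 lower and 0 or 1 higher when 1 library was left out. PAR2 fell by 0.87 ± 0.12 (edgeR adjusted p = 2.24e-04), from 8.50 to 9.49 CPM down to 4.59 to 5.15. The PRE1 paralogs PRE2 (-1.17 ± 0.16, edgeR adjusted p = 3.03e-04) and PRE5 (-1.49 ± 0.25, edgeR adjusted p = 0.00135) fell with PRE1 itself. From the inhibitory part of the list, AIF3 (-0.34 ± 0.08, edgeR adjusted p = 0.0163) and PAR1 (-0.50 ± 0.15, edgeR adjusted p = 0.0447) fell as well. The 1 that rose was AIF2 (0.58 ± 0.14), which inhibits growth like IBH1. PRE3 and PRE4 did not pass the filter. In ap1-1 against wild type 2 of the 11, PAR1 and PAR2, rose and none fell in edgeR, beside 10.6% of all genes called. Neither of these calls held in all alternatives.

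Among 8 tested relatives of HBI1, 3 fell in the microRNA line against ap1-1 and none rose, with 1 to 3 lower when 1 library was left out. BPE, which limits petal size, fell by 1.16 ± 0.15 (edgeR adjusted p = 6.88e-05). Where HBI1 was higher in ap1-1 than in wild type, BPE was lower (-0.89 ± 0.13, edgeR adjusted p = 6.57e-04), at 29.6 to 38.3 CPM against 61.4 to 68.9. After DEX, 1 of the 8 fell relative to mock, BEE2 (-0.43 ± 0.09, edgeR adjusted p = 0.00632), and none rose.

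Of 23 tested light and hormone inputs to PIF proteins, 3 rose and 1 fell in the microRNA line against ap1-1, a share near the 16.3% of all genes called, with 0 to 3 higher when 1 library was left out. The 1 that fell was PCH1, which keeps phytochrome B active (-0.46 ± 0.08, edgeR adjusted p = 9.63e-04). In DEX-treated against mock 35S::STM-GR 6 rose and 3 fell, among them the photoreceptor gene PHYB (0.42 ± 0.07, edgeR adjusted p = 0.00118) and the DELLA genes RGL2 (-0.56 ± 0.07, edgeR adjusted p = 9.38e-05) and RGL1 (-0.52 ± 0.10, edgeR adjusted p = 0.00445). Only 2 to 4 of these 23 were higher when 1 library was left out. In ap1-1 against wild type 2 of the 23 inputs rose and 2 fell, beside 10.6% of all genes called. BES1 and HMR rose, by calls that did not hold in all alternatives. RGL1 and RGL2 fell, RGL2 by 0.84 ± 0.08 (edgeR adjusted p = 1.3e-05).

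Among 25 growth genes known as PIF or HBI1 targets or as parts of the elongation response, 8 fell and none rose in the microRNA line against ap1-1, with 4 to 9 lower when 1 library was left out. IAA19, an auxin-response gene, fell by 0.83 ± 0.13 (edgeR adjusted p = 3.6e-04), PKS4 by 2.06 ± 0.36 (edgeR adjusted p = 9.74e-04) and HAT1 by 0.63 ± 0.11 (edgeR adjusted p = 0.00135). With DEX against mock, where PIF3, PIF4 and PIF7 were higher, 3 of the 25 rose and 6 fell, with 3 to 5 lower when 1 library was left out. The shade-induced homeobox gene ATHB2 rose by 1.32 ± 0.14 (edgeR adjusted p = 3.48e-05), from 10.3 to 11.5 CPM up to 25.6 to 27.9. The others that rose were YUC8 (1.11 ± 0.23, edgeR adjusted p = 0.00606) and YUC9 (3.52 ± 0.67, edgeR adjusted p = 0.00307). YUC9 was near the floor, with 4 counts over the mock libraries and 54 over those with DEX. CKX5 fell by 0.85 ± 0.08 (edgeR adjusted p = 8.69e-06) and HAT1 by 0.65 ± 0.09 (edgeR adjusted p = 4.06e-04). ST2A, a jasmonate sulfotransferase gene, fell by 0.79 ± 0.15 (edgeR adjusted p = 0.00263). In ap1-1 against wild type 3 rose and 3 fell, beside 10.6% of all genes called. The expansin genes EXPA8 (-1.43 ± 0.14, edgeR adjusted p = 3.22e-05) and EXPA1 (-1.18 ± 0.15, edgeR adjusted p = 3.11e-04) were among those that fell where PIF4, PIF7 and HBI1 were high. Among those that rose were ATHB4, at a mean of 9.69 CPM against 6.05 in wild type, and TAA1, at 40 against 28.6. Both of these calls were lost in 2 of 12 alternatives.

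The circadian clock sets PIF4 and PIF5 transcription, and 5 of 10 clock genes fell and 1 rose in the microRNA line against ap1-1. In each alternative 5 clock genes were called lower. CCA1 fell by 1.88 ± 0.17 (edgeR adjusted p = 6.76e-06), LHY by 2.0 ± 0.24 (edgeR adjusted p = 4.94e-05), PRR9 by 2.32 ± 0.32 (edgeR adjusted p = 1.54e-04) and PRR7 by 0.75 ± 0.10 (edgeR adjusted p = 8.45e-05). Of the evening-complex genes, ELF3 rose by 0.46 ± 0.08 (edgeR adjusted p = 0.00113), while ELF4 had 0.41 ± 0.14 (edgeR adjusted p = 0.0546) and LUX -0.06 ± 0.08 (edgeR adjusted p = 0.697). In ap1-1 against wild type, where PIF4 was higher, none of the 10 was called by edgeR, DESeq2 or limma-voom, 3 had an unadjusted p under 0.05, the lowest edgeR adjusted p was 0.06, and up to 2 were called higher when 1 library was left out. With DEX against mock 3 rose and none fell, CCA1 by 0.68 ± 0.12 (edgeR adjusted p = 0.00143). The labels give no time of day for collection, and the part of the clock genes in the levels of PIF4 and PIF5 was not tested.

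Green-tissue genes were listed because light signalling and tissue make-up both touch them. In the microRNA line against ap1-1, 3 of 6 fell and 2 rose, with LHCB2.1 at -1.68 ± 0.10 (edgeR adjusted p = 3.59e-07). In DEX against mock none of the 6 was called in edgeR (1 had an unadjusted p under 0.05, DESeq2 called 1 and limma-voom 0). In ap1-1 against wild type none was called by edgeR, DESeq2 or limma-voom, and 0 had an unadjusted p under 0.05.

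The nearest relatives of the PIF genes, 5 in number, were tested as well. PIL1 fell in the microRNA line against ap1-1 (-0.76 ± 0.25, edgeR adjusted p = 0.0474), a call lost in 10 of 12 alternatives. In 35S::STM-GR with DEX against mock, PIF8 (0.74 ± 0.21, edgeR adjusted p = 0.031) and ALC, a fruit-opening gene (0.30 ± 0.08, edgeR adjusted p = 0.0216), rose, and 0 or 1 of the 5 were higher when 1 library was left out. PIF8 was also higher in ap1-1 than in wild type (1.11 ± 0.24, edgeR adjusted p = 0.00851), a call lost with only the 2 groups fitted and without the first wild-type library, at 2.65 to 3.35 CPM against 1.35 to 1.45.

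In the microRNA line against wild type, 28.9% of all genes were called, 12.1% higher and 16.8% lower. There 10 of the 25 growth genes fell and 2 rose, with 5 to 7 lower when 1 library was left out. EXPA8 fell by 1.86 ± 0.17 (edgeR adjusted p = 2.48e-06). Among the HBI1 relatives 3 rose (0 to 2 when 1 library was left out) and 2 fell, with BPE at -2.05 ± 0.16 (edgeR adjusted p = 7.96e-07), at 14.6 to 16.8 CPM. Of the helix-loop-helix genes 2 fell and none rose, and PRE6 (KDR) was at -1.70 ± 0.22 (edgeR adjusted p = 4.38e-05). Of the inputs 5 rose and 4 fell, with 0 to 4 higher when 1 library was left out. Of the clock genes 3 rose and 5 fell, and of the green-tissue genes 1 rose, a call lost whichever library was left out, and 3 fell. PIF8 rose by 1.55 ± 0.25 (edgeR adjusted p = 3.05e-04), a call that held in all 11 alternatives.

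Between 35S::STM-GR and wild type, both with DEX, 10.8% of all genes were called, 4.92% higher and 5.92% lower. There 6 of the 11 helix-loop-helix genes fell and none rose in edgeR, while DESeq2 called 1 higher, with 2 to 4 lower when 1 library was left out. PAR2 fell by 1.04 ± 0.13 (edgeR adjusted p = 1.15e-04) and PRE5 by 1.44 ± 0.28 (edgeR adjusted p = 0.00377). Of the growth genes 3 rose and 3 fell, with ATHB2 at 1.39 ± 0.17 (edgeR adjusted p = 9.73e-05). Of the inputs 3 rose and 1 fell, of the clock genes 2 rose, of the HBI1 relatives 2 fell and of the PIF relatives 2 rose. When 1 library was left out, 0 or 1 input and 0 to 2 clock genes and PIF relatives each were higher and 0 to 2 HBI1 relatives lower. The DEX response was called different between 35S::STM-GR and wild type for 1.93% of all genes. Among them in edgeR were 3 pathway genes outside the 8: ATHB2 (1.29 ± 0.23, edgeR adjusted p = 0.00862), CKX5 (-0.70 ± 0.12, edgeR adjusted p = 0.00631) and PAR2 (-0.86 ± 0.18, edgeR adjusted p = 0.0211). The call of CKX5 held in all 17 alternatives, that of ATHB2 was lost in 1 (without the second DEX-sprayed wild-type library) and that of PAR2 in 6, each with 1 library left out.

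In DEX-sprayed against unsprayed wild type, no gene of these lists was called in edgeR or limma-voom, DESeq2 called 1 clock gene higher, and 0 or 1 input and growth gene each were called higher when 1 library was left out. An unadjusted p under 0.05 in edgeR was found for 4 of 25 growth genes, 2 of 10 clock genes, 2 of 23 inputs and 1 of the 5 PIF relatives, and for 0 genes of the other lists. The share of all genes under that unadjusted threshold is not given here, so these counts cannot be read as a response of the lists.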

How the data were processed

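RNA sequencing counts of 15 libraries in 6 groups were analysed. The authors deposited 1 table of raw counts per gene and library; the submitters' processing notes name TopHat2 2.0.6, HTSeq 0.62 and the build TAIR10. The authors also deposited a table of normalized signal, and the same notes name DESeq2. Each of its columns equalled the counts divided by 1 size factor (relative deviation at most 5.1e-15), and it entered no test. Whether reads were counted by strand is not given in the sources used here. Entries naming no gene (5) held 5.49% to 6.63% of reads and stayed out.

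Tests used edgeR 4.0.16 in R 4.3.3: filterByExpr with a minimum count of 10 over the 6 groups (21716 genes kept), TMM scaling, and the quasi-likelihood test on a model with a mean per group, adjusted by Benjamini-Hochberg over all genes tested. The biological coefficient of variation was 9.85%. An SE is the log2 fold change over the square root of F, and 2 was the prior count in log2 CPM. The tests were first run on simulated counts with known changes. Alternatives were DESeq2 1.42.0, limma-voom (limma 3.58.1), other scalings, no filter, a replicate block, only the groups compared, and each library left out, which leaves some groups with a lone library assumed to vary like the rest.

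The genes and lists (PIF relatives, PRE and inhibitory helix-loop-helix genes, HBI1 relatives, light and hormone inputs, growth genes, clock genes, green-tissue genes) were chosen with earlier results of these data known. All 8 genes are named in every comparison, and from each list and comparison up to 4 called genes with the lowest adjusted p, besides CCA1, LHY, ELF3, ELF4 and LUX, and the 3 genes most alike to each. The text names a subset of these, chosen with their values in view. Named outside this rule are YUC8, YUC9, AIF3 and PAR1 with DEX against mock, and the marker genes. Nothing in the labels says that replicates were grown apart, so p-values measure the spread between these samples, which may be technical. The series' design text names the allele ap1-4, the sample labels ap1-1, and the latter is used. Gene names, exon lengths and promoters come from RefSeq on TAIR10.1, which names 28009 of 28775 genes counted; the count files hold no coordinates.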

Additional observations from a re-analysis of the deposited data

Results flagged for a closer look

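For 3 genes the change with DEX in 35S::STM-GR differed from the change with DEX in wild type, by a test of that difference in the edgeR fit. The difference was 1.04 for PIF7 on the log2 scale, with 0.95 ± 0.15 (SE) in 35S::STM-GR and -0.09 ± 0.20 in wild type. It was -1.06 for HBI1, with -1.03 ± 0.17 and 0.03 ± 0.18, and -0.78 for PRE1, with -1.07 ± 0.12 and -0.29 ± 0.14. The 35S::STM-GR control was mock-sprayed and the wild-type control unsprayed, so the effect of spraying enters the wild-type change and cannot be told apart there. Each of the 3 calls was lost in 10 of 17 alternatives.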

How the results depend on the processing

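Of the log2 fold changes of the 8 genes under the alternatives, 632 kept direction and side of the threshold, 47 lost a call, 10 gained one and 15 changed sign. For the difference in DEX response, 3 genes were called, against 1 with limma-voom and 1 with only the groups compared. When 1 library was left out, the number called was 4 to 6 for the microRNA line against ap1-1, 3 to 5 for DEX against mock, 0 to 0 for wild type with DEX, 3 to 4 for ap1-1 against wild type, 3 to 5 for the microRNA line against wild type, 3 to 4 for 35S::STM-GR against wild type with DEX, and 0 to 2 for the difference in DEX response. The ratios of highest to lowest group mean moved by less than the replicate spread under both other scalings.

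The sign changes were all of values not called. In DEX-sprayed against unsprayed wild type, HFR1 became 0.003 with library totals only, 9e-04 without the second DEX library and 0.0266 without the second wild-type library; PIF7 became 0.0429 without the first DEX library and 0.182 without the second wild-type library, and HBI1 -0.128 without the latter. PIF3 in the microRNA line against ap1-1 became -0.0649 with the replicate block, -0.0646 and -0.0367 without the first or last ap1-1 library, and -0.132 without the second microRNA library. PIF1 with DEX against mock became -0.0481 without the first DEX library and -0.0228 without the last mock library, and its difference in DEX response became 0.0345, 0.0147 and 0.001 without the last DEX-treated 35S::STM-GR, first mock or first wild-type library. When each library was left out, that difference of PIF1 ran down to -0.12, and in wild type with DEX PIF7 ran down to -0.317, HFR1 down to -0.0708 and HBI1 up to 0.202. The cause was not tested.

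Same-numbered samples of paired groups correlated at -0.13 to 0.08 in their deviations from the group means. With so few libraries per group, these values cannot show whether a shared number marks a shared origin. For DEX-sprayed wild type the sample descriptions carry other numbers than the titles. The titles' numbers were used here and in the replicate block, so a pairing by description was not tested. With the replicate block HBI1 lost its call in the difference in DEX response (-1.05 ± 0.25 SE), PRE1 gained one in 35S::STM-GR against wild type with DEX (-0.47 ± 0.14), and no other of the 8 genes changed its call. HFR1 in ap1-1 against wild type was called by DESeq2 (-0.45 ± 0.16) and limma-voom (-0.47 ± 0.13) and without the second ap1-1 library (-0.63 ± 0.11). Among other calls gained were HFR1 with DEX against mock, with only the groups compared (-0.25 ± 0.07), and PIF1 in ap1-1 against wild type, without the first ap1-1 library (-0.36 ± 0.11). PIF4 gained one in the difference in DEX response, without the last DEX-treated 35S::STM-GR library (0.58 ± 0.12). With only the groups compared, genes called higher and lower went from 1178 and 1128 to 94 and 140 in ap1-1 against wild type, from 1057 and 2475 to 344 and 1603 in the microRNA line against ap1-1, from 105 and 29 to 60 and 6 with DEX in wild type, from 1207 and 1553 to 2262 and 2792 with DEX against mock, from 1069 and 1286 to 2192 and 2394 in 35S::STM-GR against wild type with DEX, and from 205 and 214 to 348 and 373 in the difference in DEX response. DESeq2 called 165 and 77 with DEX in wild type. When 1 library was left out, genes called higher and lower ran from 657 and 809 (first mock) to 1110 and 1403 with DEX against mock, from 392 and 599 (first wild type) to 1855 and 1775 (last ap1-1) in ap1-1 against wild type, and from 298 and 416 (first DEX-sprayed wild type) to 765 and 966 in 35S::STM-GR against wild type with DEX. They were lowest at 1204 and 2407 (second microRNA library) in the microRNA line against wild type and at 95 and 104 (first DEX-sprayed wild type) in the difference in DEX response, and ran from 38 and 1 (second DEX library) to 158 and 104 (first wild type) with DEX in wild type. With library totals only, the median log2 fold change of all genes was at most 0.046, against 0.013 in that comparison. The lowest counts in a library were 55 for PIF7 and 40 for HBI1.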
